A study of Mus musculus with 6 samples.

Results

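Accessible chromatin in gene deserts was examined in a single list of ATAC-seq intervals from mouse liver. An interval was counted as a desert interval when its centre lay over 100 kb from the span of every protein-coding RefSeq gene on its chromosome (mm10, the GRCm38 assembly). Of 120905 intervals, 22161 met this rule (18.3%, exact 95% interval 18.1 to 18.5). A further 39368 lay outside coding genes but within 100 kb of one, and 59376 lay inside a coding gene. The rule used position only. Widths, spacing, non-coding genes and sequence were not used to choose the members.

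The list combined 6 libraries from livers of wild-type males on a high-fat diet, 3 of strain C57BL/6J and 3 of strain 129S1/SvImJ. The diet, sex and genotype were shared by all 6, so there was no lean or mutant group, and age was not in the labels. ATAC-seq uses a transposase that inserts adapters into open DNA, and an interval is a stretch where such insertions were called as a peak. The list gave 3 columns, chromosome, start and end, with 0 columns of samples, so no strain, library or signal height could be assigned to any interval and no comparison of C57BL/6J with 129S1/SvImJ was made. Whether replicates came from separate animals is not stated in the labels, and the transposed material is named by an abbreviation (LMs) that they do not explain. An antibody, Esrrg, is entered for each library, which ATAC-seq does not call for, and the list alone does not show whether that entry is an error. In bulk material, a site open in few cells and a site weakly open in many cells cannot be told apart.

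As a check of the tissue label, gene spans of hepatocyte markers were searched for intervals. The spans of 9 of 10 held at least 1, against 13677 of all 21774 coding genes (62.8%), and the exception was Alb, the serum albumin gene. Promoters went the other way. Of the 9 hepatocyte genes with an entry in the promoter table, 3 had an interval there (Apob, Hnf4a and Serpina1a). That share, 33.3%, was below the 52.1% of coding genes (9122 of 17492). Among 8 markers of Kupffer cells and macrophages, 3 had an interval inside the gene, and Clec4f, Vsig4, Cd163, Adgre1 and Cd68 had none there, although the promoter of Cd68 overlapped one. Spans with an interval numbered 6 of 6 for endothelial, 3 of 5 for hepatic stellate and 4 of 6 for neuronal markers, so the check did not separate hepatocytes from every other cell type. These marker lists were chosen after the data had been seen.

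Gene deserts are long stretches of chromosome without protein-coding genes. They are often bordered by genes for developmental transcription factors or for neuronal adhesion molecules, and some hold enhancers, DNA elements that act on a promoter from afar. Much of the rest of a desert is late-replicating, AT-rich and packed at the nuclear lamina in many cell types. Non-coding genes, including microRNA genes and long non-coding RNA (lncRNA) genes, also lie in these stretches. In liver, enhancers far from genes are known for hepatocyte transcription factors and for metabolic genes.

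Desert intervals that lay on microRNA genes are shown first because they mark named transcripts in stretches otherwise described only by their borders. The mature sequences of these microRNAs were taken from the RefSeq table for GRCm38.p6, 5′ to 3′, and capitals mark the seed, bases 2 to 8, which pairs with target transcripts. Of 118 microRNA genes in deserts, 13 (11%) had a desert interval within 1 kb. An interval within 1 kb of an end was found for 10.9% of pseudogenes, 11.2% of other RNA genes and 17.6% of lncRNA genes in deserts. All 13 microRNA genes had entries in the RefSeq table, and the interval overlapped the hairpin itself in 8. The 13 genes gave 19 mature sequences with 18 different seeds. The sequences below belong to Mir802, a microRNA studied in obese and diabetic liver, to Mir137, a microRNA of neuronal development, and to the Mir344 cluster.
miR-802-5p: uCAGUAACaaagauucauccuu
miR-802-3p: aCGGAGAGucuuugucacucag
miR-137-3p: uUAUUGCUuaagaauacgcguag
miR-137-5p: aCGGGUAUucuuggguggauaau
miR-344-5p: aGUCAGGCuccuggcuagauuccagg
miR-344g-5p: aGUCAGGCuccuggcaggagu
miR-344i: aAGUCAGGcuccuggcugga
miR-344d-2-5p: aGUCUGGUugcuggcuauauucca

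The seed GUCAGGC was shared by miR-344-5p and miR-344g-5p and was the only seed that occurred more than once. The 4 Mir344 genes with a desert interval within 1 kb, Mir344, Mir344d-2, Mir344g and Mir344i, lay in 1 desert on chromosome 7 between Gm51483 and Ndn, an imprinted gene known from Prader-Willi syndrome. Intervals covered the whole hairpins of Mir344g (chr7:61982289-61982359, minus strand, 71 bp), Mir344i (chr7:62085223-62085310, minus strand, 88 bp) and Mir344d-2 (chr7:61685272-61685351, minus strand, 80 bp), whereas the interval near Mir344 was centred 942 bp from it. The 5p sequences above are alike in part, whereas the 3p sequences of Mir344, Mir344g and Mir344d-2 had different seeds. Whether reads could be placed uniquely within this cluster was not tested. Mir1251 on chromosome 10 and Mir6379 on chromosome 3 were also covered in full, the latter by an interval of 322 bp, the widest at any of the 13.

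Mir802 lies at chr16:93369720-93369816 on the plus strand, in a desert of 557 kb between Runx1, a transcription factor of blood cell formation, and Setd4, a lysine methyltransferase gene. The interval at chr16:93369806-93370006, of 201 bp, overlapped the last 11 bp of the hairpin. The same desert held 13 intervals, or 23.3 per Mb, and 6 of the 13 had the narrowest width. Of the 13, 5 were centred within 30 kb of the hairpin. Besides the overlapping one, they were centred 27779, 22362, 15658 and 14347 bp from the hairpin's midpoint on its lower-coordinate side, which is upstream on the plus strand. The widest of the 5 had 258 bp and was the farthest of them. At Mir137 (chr3:118433857-118433929, plus strand, between Snx7 and Dpyd) a 220 bp interval overlapped the first 17 bp of the hairpin and extended upstream.

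Promoters of non-coding genes gave a further set of positions that could be read as sequence. The RefSeq table for GRCm38.p6 held 2076 promoters (250 bases before to 50 after the start) of 1756 non-coding genes in deserts, and 164 of them (7.90%, exact 95% interval 6.78 to 9.14) overlapped an interval. The share was 17.9% for non-coding genes outside deserts and 48.4% for coding genes. The 164 desert promoters with an interval belonged to 147 genes, and promoters of the same gene can share an interval. Below are promoters with much of their length inside an interval, 5′ to 3′ on the gene's strand, with capitals for matches on either strand to TATAAA (a core promoter element), CCAAT (known for factor NF-Y), CACGTG (the E-box), AGGTCA (a nuclear receptor half-site), TGACTCA (known for AP-1), TGTTTAC (known for forkhead factors), CGGAAG (known for ETS factors) and GGGCGG (the GC box). None of these words contains another.
Gm33459: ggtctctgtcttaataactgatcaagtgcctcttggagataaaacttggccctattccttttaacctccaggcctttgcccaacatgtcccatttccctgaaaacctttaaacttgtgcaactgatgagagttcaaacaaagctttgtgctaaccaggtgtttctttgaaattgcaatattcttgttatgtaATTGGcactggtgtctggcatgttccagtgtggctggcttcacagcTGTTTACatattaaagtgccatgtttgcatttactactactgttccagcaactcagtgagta
1700011C11Rik: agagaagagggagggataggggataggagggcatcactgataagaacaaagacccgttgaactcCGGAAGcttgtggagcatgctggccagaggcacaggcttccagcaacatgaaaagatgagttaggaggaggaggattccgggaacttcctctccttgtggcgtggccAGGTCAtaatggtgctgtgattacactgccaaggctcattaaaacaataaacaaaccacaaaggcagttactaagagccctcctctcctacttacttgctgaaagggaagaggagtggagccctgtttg
9230102K24Rik: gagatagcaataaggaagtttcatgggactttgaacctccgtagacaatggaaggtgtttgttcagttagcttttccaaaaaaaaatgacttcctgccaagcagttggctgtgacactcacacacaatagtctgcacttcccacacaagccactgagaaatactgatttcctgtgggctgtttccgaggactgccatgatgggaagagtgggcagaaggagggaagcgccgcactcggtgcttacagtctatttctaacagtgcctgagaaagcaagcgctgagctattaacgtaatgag
Gm35551: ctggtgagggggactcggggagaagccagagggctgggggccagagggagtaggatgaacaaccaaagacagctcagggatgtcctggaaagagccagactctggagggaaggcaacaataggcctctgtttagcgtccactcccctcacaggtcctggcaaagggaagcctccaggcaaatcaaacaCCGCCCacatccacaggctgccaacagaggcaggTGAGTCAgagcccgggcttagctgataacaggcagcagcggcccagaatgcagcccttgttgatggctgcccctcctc

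The first of these, the lncRNA gene Gm33459 (promoter chr9:74528637-74528936, minus strand), lies in the desert between Wdr72 and Onecut1, the gene of the hepatocyte transcription factor HNF6. Its promoter shared 281 bp with an interval of 281 bp, had 41.3% GC and no CpG, and held 1 forkhead word and 1 reversed CCAAT word. The promoter of 1700011C11Rik (chr7:71960925-71961224, plus strand, between Gm44812 and Mctp2) shared 260 bp with an interval of 383 bp and held an AGGTCA and a CGGAAG word. 9230102K24Rik (chr10:110600400-110600699, plus strand, between Nav3 and E2f7) held none of the 8 words, although an interval of 292 bp covered 257 bp of it. Gm35551 (chr17:84026272-84026571, minus strand, between Haao and Zfp36l2) had the highest GC content of the 4, 60.0%, with 1 GC box and 1 AP-1 word. The next promoter by overlap, LOC115485728 between Ifng and Dyrk2, had 257 bp inside an interval and 1 CCAAT word.

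As a set, the 164 desert promoters with an interval were less GC-rich than accessible promoters at large. Their median GC content was 47.0% with a median of 4 CpG, against 61.3% and 21 CpG in all 12150 promoters of the table that overlapped an interval, and 44.7% with 3 CpG in the 1912 desert promoters without one. The GC box stood in 12.8% of the 164, in 5.13% of the desert promoters without an interval and in 64.9% of all promoters with one. The ETS word stood in 9.76%, 4.97% and 30.9% of the same sets. Other words were more frequent in the 164 than in all promoters with an interval. The half-site AGGTCA occurred in 22.6% against 12.6%, TATAAA in 15.9% against 6.55%, the AP-1 word in 7.93% against 3.52% and the forkhead word in 6.10% (10 promoters) against 2.58%. Desert promoters without an interval had these words in 19.2%, 20.7%, 5.91% and 4.50% in the same order, so TATAAA was more frequent there than in the 164. CCAAT stood at 39.6% against 38.8% and the E-box at 3.66% (6 promoters) against 9.56%. In all 32851 promoters of the table, open or not, the shares were 16.3% for AGGTCA, 13.6% for TATAAA, 5.20% for AP-1, 3.65% for forkhead, 35.7% for the GC box, 16.9% for ETS, 37.4% for CCAAT and 7.15% for the E-box. A match is a run of letters and not a bound site, and how far base composition sets these shares was not tested.

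Deserts made up 760 Mb, or 28.5% of the 2660.7 Mb of chromosome spans, and held 29.2 intervals per Mb (exact Poisson 95% interval 28.8 to 29.6). The rest of the genome held 51.9 per Mb, so the ratio of desert to rest was 0.562. Inside coding genes the value was 57.6 per Mb, and outside genes but within 100 kb it was 45.2 per Mb. Intervals covered 0.616% of desert bases and 1.13% of all others. The intervals given here cover counting error only, and since neighbouring intervals are not independent and there is 1 list, no test between these classes was made.

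The lower density was found on each chromosome. It was below that of the rest on 21 of 21 chromosomes, and on the 19 autosomes the ratio ran from 0.108 to 0.787 with a median of 0.588. Chromosome 10 had the densest deserts, with 42.7 per Mb (40.5 to 44.9), and chromosome 14 the highest share of intervals in deserts among autosomes, 1595 of 5718 (27.9%). Chromosome 19 stood apart from the other autosomes, with 37 desert intervals in 10.5 Mb, 3.53 per Mb (2.48 to 4.86), against 32.5 per Mb elsewhere on it. The next lowest autosome, chromosome 11, had 21.0 per Mb. Deserts of X held 6.48 per Mb against 24.5 elsewhere on X. Those of Y held 0.465 per Mb (0.291 to 0.704) from 22 intervals, and this 95% interval included the 0.577 per Mb elsewhere on Y. All animals were males, with 1 copy of X, and the Y chromosome carries repeats that reads cannot be placed on uniquely.

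**Figure D1:**
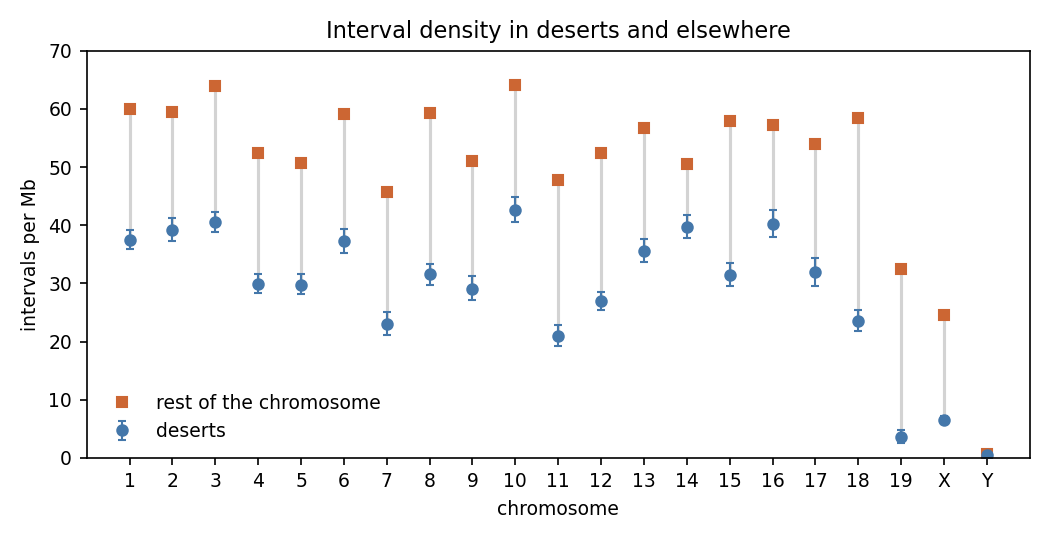
Intervals per Mb (y axis) on each chromosome (x axis), in deserts (circles, bars are exact Poisson 95% intervals for counting error) and on the rest of the chromosome (squares). The circle lies below the square on each of the 21 chromosomes, and chromosome 19, X and Y have the lowest desert values.

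Within deserts, density did not keep falling with distance from genes. It was 65.8 per Mb within 10 kb of a coding gene, 39.3 at 10 to 50 kb, 32.0 at 50 to 100 kb, 27.8 at 100 to 200 kb and 26.7 at 200 to 500 kb. Beyond that it was higher, 32.0 per Mb at 500 to 1000 kb and 38.8 (37.4 to 40.3) beyond 1000 kb, where 2632 intervals lay in 67.8 Mb. With X and Y included, the direction depended on the gene set. Without predicted coding genes the value beyond 1000 kb was 0.591 times that at 100 to 200 kb. On autosomes alone the direction did not turn, with 1.22 times for all coding genes and 1.20 times without predicted ones. On autosomes alone the values were 32.7, 30.7, 35.2 and 40.0 per Mb from 100 to 200 kb outward. Desert length goes with this order, because positions over 1000 kb from genes exist only in long deserts. Within deserts over 2 Mb alone the 4 values were 36.2, 37.1, 37.5 and 38.6 per Mb, with overlapping 95% intervals.

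The narrowest and the wider intervals followed opposite courses. Intervals had widths of 201 to 401 bp, and 14839 of the 22161 in deserts (67.0%, 66.3 to 67.6) had exactly 201 bp, against 41.0% of those outside genes within 100 kb and 42.0% of those inside genes. From 100 to 200 kb to over 1000 kb the density of 201 bp intervals was 15.5, 17.5, 24.7 and 31.5 per Mb, whereas that of wider intervals was 12.3, 9.21, 7.34 and 7.35 per Mb. The share of 201 bp intervals was accordingly 55.9%, 65.5%, 77.1% and 81.1%. It was higher beyond 500 kb than at 100 to 200 kb on 19 of 19 autosomes. Beyond 1000 kb, 201 bp intervals were denser than inside coding genes (31.5 against 24.2 per Mb), and wider ones were sparser (7.35 against 33.4). In deserts over 2 Mb the share was also higher farther out, 71.7% at 100 to 200 kb and 80.9% beyond 1000 kb.

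**Figure D2:**
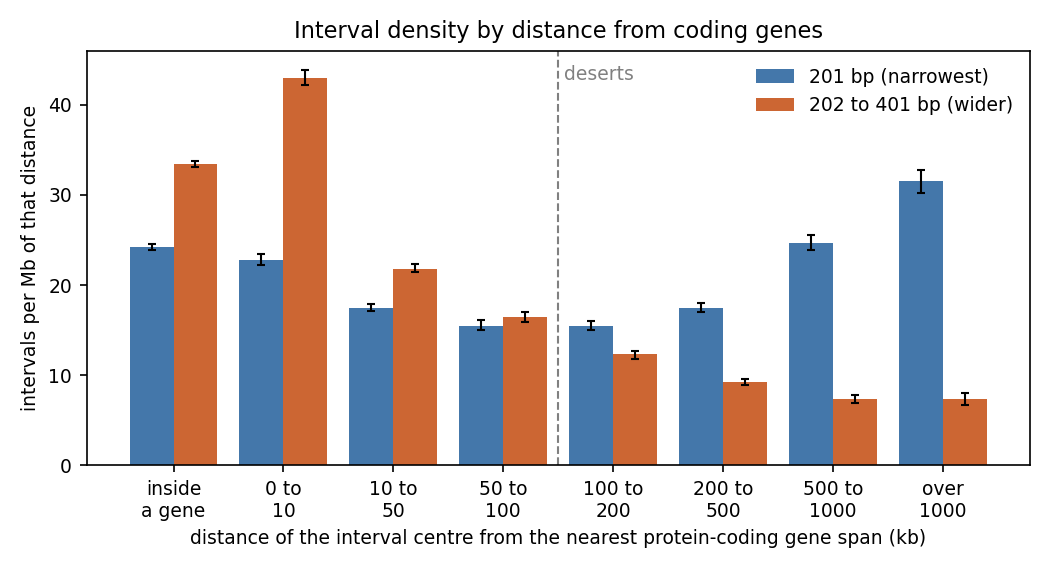
Intervals per Mb (y axis) by distance of the interval centre from the nearest coding gene in kb (x axis), for intervals of 201 bp and for wider ones, with exact Poisson 95% intervals as bars. Right of the dashed line, which marks the 100 kb rule, the 201 bp bars are taller with distance, from 15.5 to 31.5 per Mb, and the wider bars are shorter, from 12.3 to 7.35 per Mb.

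The other width classes made up smaller shares in deserts than in the other classes of position, by little for the widest. Widths of 202 to 250 bp made up 26.6% of desert intervals, against 49.7% of those outside genes within 100 kb and 48.2% of those inside genes. Widths over 250 and up to 300 bp made up 4.72% against 7.54% and 7.88%. Widths over 300 bp, 376 intervals, made up 1.70% (1.53 to 1.88), against 1.77% (1.64 to 1.90) and 1.99% (1.88 to 2.11). Read the other way, deserts held 26.5% of all 201 bp intervals, 10.9% of those of 202 to 250 bp, 12.0% of those over 250 and up to 300 bp and 16.7% of those over 300 bp. A width of 201 bp is the minimum in the list, and the rule that set it is not given here. Strength could not be read from width, since no signal was in the list.

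The same contrast in width appeared across chromosomes. The share of 201 bp intervals was higher in deserts than elsewhere on 20 of 21 chromosomes. On autosomes it ran from 58.4% (chromosome 13) to 72.7% (chromosome 5) in deserts and from 38.9% to 46.7% elsewhere, so the ranges did not overlap. The exception was Y, with 45.5% of 22 desert intervals against 60.0% of the rest. On X the share was 47.2% of 360 desert intervals against 33.2%.

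The widest desert interval, of 401 bp, lay at chr13:87538958-87539358, 1282.3 kb from Edil3, a gene of an integrin-binding matrix protein. An interval of 400 bp lay at chr13:84449400-84449799, 154 kb from Tmem161b. Those of 399 bp lay at chr3:43138456-43138854, between D3Ertd751e and the protocadherin gene Pcdh10, and at chr5:78699530-78699928, between Igfbp7 and Adgrl3. Of these 4 intervals, 3 were over 1000 kb from any coding gene.

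Desert intervals were a median of 322 kb from the nearest coding gene (quartiles 177 and 643 kb). Of them, 7452 (33.6%) lay over 500 kb away, 2632 (11.9%) over 1000 kb and 70 over 2 Mb. The farthest, at chr14:90739883-90740088 (206 bp), was 2268.6 kb from Pcdh20 and 2273.7 kb from Pcdh9. The next 3 were in the same desert, at 2264.0, 2248.6 and 2244.4 kb, and 1 of them had 391 bp. The fifth lay between Celf4 and Pik3c3, 2234.6 kb from the former. At the other end, the 5 intervals just inside the rule were 100008 to 100099 bp from Asb7, Cypt12, Nlgn1, Ralgapa2 and Tll1. Just outside it, 4 intervals were 99930 to 99996 bp from Pabpc2, Supt20, Cd180 and Gm597. Widths were 201 to 245 bp in the former and 201 to 273 bp in the latter.

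Desert intervals were spaced more widely than others. The nearest other interval was a median of 8.90 kb away, centre to centre, against 5.06 kb for all other intervals, and this median was longer in deserts on 21 of 21 chromosomes. Another interval lay within 5 kb of 6682 desert intervals (30.2%, 29.5 to 30.8), against 49.6% of others. Within 1 kb the shares were 9.18% and 16.1%, and within 20 kb 78.0% and 90.4%. The share within 5 kb was lower in deserts on 21 of 21 chromosomes. Density was lower in deserts too, and spacing at equal density was not tested.

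**Figure D3:**
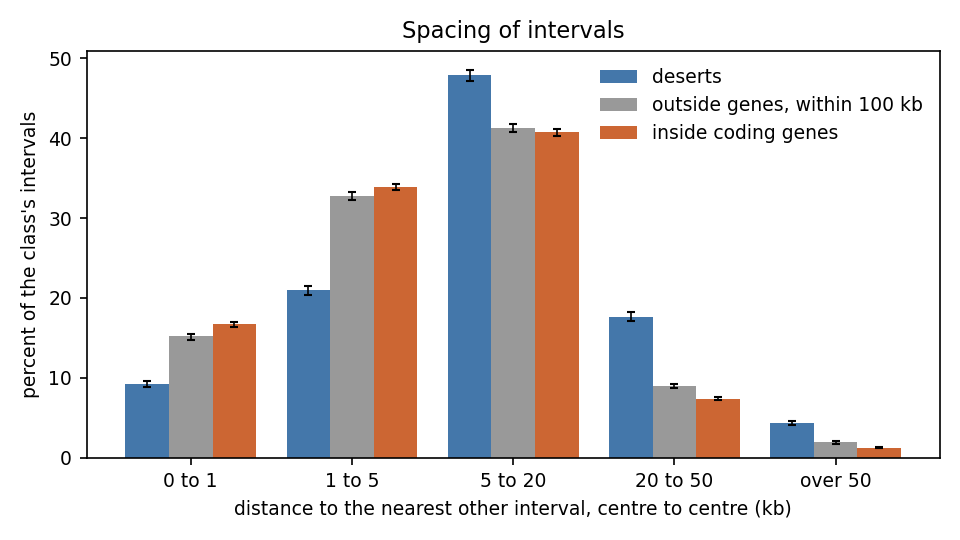
Percent of intervals (y axis) by distance to the nearest other interval in kb (x axis), for intervals in deserts, outside genes within 100 kb, and inside coding genes, with exact 95% intervals as bars. Desert intervals are fewer at 1 to 5 kb (21.0% against 32.8% and 33.9%) and more frequent at 20 to 50 kb (17.6% against 8.98% and 7.39%).

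Between neighbours in the same desert there were 20913 gaps, with a median of 15.9 kb (quartiles 7.0 and 33.6 kb). Of these gaps, 1043 (4.99%) were within 1 kb and 770 (3.68%) over 100 kb. The longest, 1295.6 kb, lay in the X desert between Diaph2, a formin gene, and the protocadherin gene Pcdh19. Width varied with spacing. The share of 201 bp intervals was 67.0% where the nearest other interval lay within 1 kb, 61.5% at 1 to 5 kb, 67.8% at 5 to 20 kb and 70.3% beyond 20 kb.

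The tightest group was 6 intervals at chr1:4661945-4672033, with centres spread over 9859 bp. It lay between Sox17, a transcription factor gene of endoderm and endothelium, and Mrpl15, a mitochondrial ribosomal protein gene. Its intervals had 206, 219, 219, 228, 201 and 254 bp, so 1 of the 6 had the narrowest width. The last 4 of them were centred 856, 665 and 460 bp apart in order. The group lay 101 to 111 kb from Mrpl15, just past the 100 kb rule, and 165 to 174 kb from Sox17.

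A desert was defined as a gap between coding genes less 100 kb at each side, and there were 1685 of them, 1248 with an interval (74.1%). The median desert with an interval held 8, and 158 held exactly 1. The 130 fullest deserts (7.72%) held 50.1% of all desert intervals. The 10 fullest held 1759 (7.94%) in 34.3 Mb, which is 4.51% of desert bases, and 6 of these 10 were also among the 10 longest. The 64 deserts over 2 Mb held 31.0% of desert intervals at 37.7 per Mb, with 78.7% of 201 bp. Deserts of 0.1 to 0.5 Mb held 26.0 per Mb, of 0.5 to 1 Mb 25.5 and of 1 to 2 Mb 27.1, with 54.0%, 62.8% and 70.2% of 201 bp. The 530 shortest, under 0.1 Mb, had 31.4 per Mb and the lowest share of 201 bp intervals, 41.2%, similar to the shares outside deserts.

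**Figure D4:**
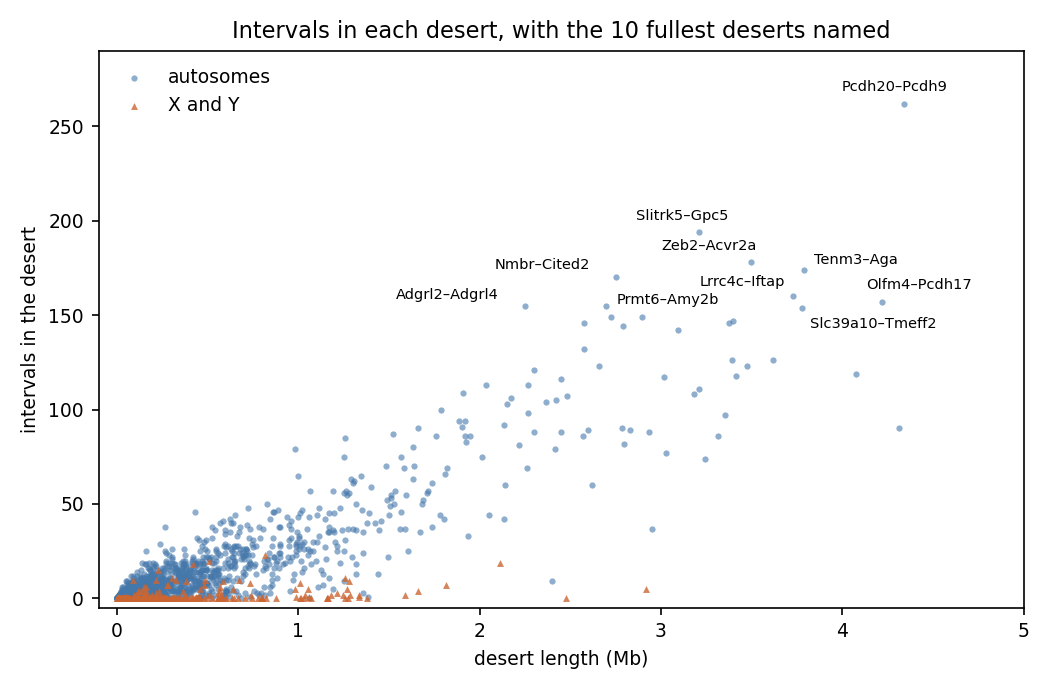
Number of intervals (y axis) against length in Mb (x axis) for each of the 1685 deserts, on autosomes (circles) and on X and Y (triangles), with the 10 fullest deserts named by their flanking genes. The Pcdh20–Pcdh9 desert is highest with 262, and X and Y deserts lie at the bottom of the range, none of them among the 10.

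The fullest desert, chr14:88571397-92913699, lies between Pcdh20 and Pcdh9, protocadherin genes of cell adhesion in the nervous system. It is also the longest, at 4.34 Mb, and it held 262 intervals, 60.3 per Mb (53.3 to 68.1), of which 210 (80.2%) had 201 bp. Chromosome 14 held 2 more of the 10. The desert between Slitrk5, a synapse-organising membrane protein gene, and Gpc5, a glypican gene, held 194 (60.5 per Mb). The desert between Olfm4, a secreted olfactomedin gene, and Pcdh17, another protocadherin gene, held 157 in 4.22 Mb (37.2 per Mb) with the highest share of 201 bp intervals among the 10, 87.3%. Of all 1685 deserts, 17 bordered a protocadherin gene, and 2 of these were among the 10 fullest.

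Chromosome 2 held a pair of the 10 fullest deserts. Between Zeb2, a zinc-finger repressor of epithelial genes that is also active in Kupffer cells, and Acvr2a, an activin receptor gene, there were 178 intervals (50.9 per Mb, 70.2% of 201 bp). Between Lrrc4c, a synaptic netrin-G ligand gene, and Iftap there were 160 (42.9 per Mb), with 1 stretch of 503 kb without any. That was the longest empty stretch in the 10 deserts, the others reaching 94.8 to 157 kb. It ran from 100347741 to 100850494, on the Iftap side.

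Of the other 5, Tenm3–Aga on chromosome 8 (Tenm3 is a teneurin adhesion gene, Aga a lysosomal amidase gene) held 174 intervals, 86.8% of 201 bp. Nmbr–Cited2 on chromosome 10 held 170 at 61.8 per Mb. Nmbr encodes the neuromedin B receptor, and Cited2 a co-regulator that binds CBP and p300. On chromosome 3, Prmt6–Amy2b, between an arginine methyltransferase gene and a pancreatic amylase gene, and Adgrl2–Adgrl4, between 2 adhesion G protein-coupled receptor genes, held 155 each. Slc39a10–Tmeff2 on chromosome 1, next to a zinc transporter gene, held 154.

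Adgrl2–Adgrl4 differed from the other 9 in width. It was the densest of the 10, at 68.9 per Mb (58.5 to 80.7), and had the lowest share of 201 bp intervals, 55.5%, where the others had 67.6% to 87.3%. Counted by wider intervals only, it came first with 69, followed by Slitrk5–Gpc5 with 61, Nmbr–Cited2 with 55, Zeb2–Acvr2a with 53 and Pcdh20–Pcdh9 with 52. The desert between Myc, the proto-oncogene, and Gsdmc came sixth by that count with 41, and it was not among the 10 fullest.

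Wider intervals were unevenly placed within several of these deserts. In Adgrl2–Adgrl4, 53 of the 69 wider intervals lay on the Adgrl2 side of the midpoint, while the 201 bp intervals divided 40 to 46. In Slitrk5–Gpc5, 48 of 61 wider intervals lay on the Gpc5 side, but 86 of 133 narrow ones lay on the Slitrk5 side. In Nmbr–Cited2, 38 of 55 wider intervals lay on the Cited2 side, against 51 of 115 narrow ones. In Pcdh20–Pcdh9, 41 of 52 wider intervals lay on the Pcdh20 side, against 119 of 210 narrow ones. In Zeb2–Acvr2a (29 and 24), Slc39a10–Tmeff2 (13 and 16), Lrrc4c–Iftap (17 and 15) and Olfm4–Pcdh17 (10 and 10) the wider ones divided nearly evenly. Prmt6–Amy2b had 14 and 25, and Tenm3–Aga 14 and 9. This division by side was chosen after the positions had been seen and was not tested.

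**Figure D5:**
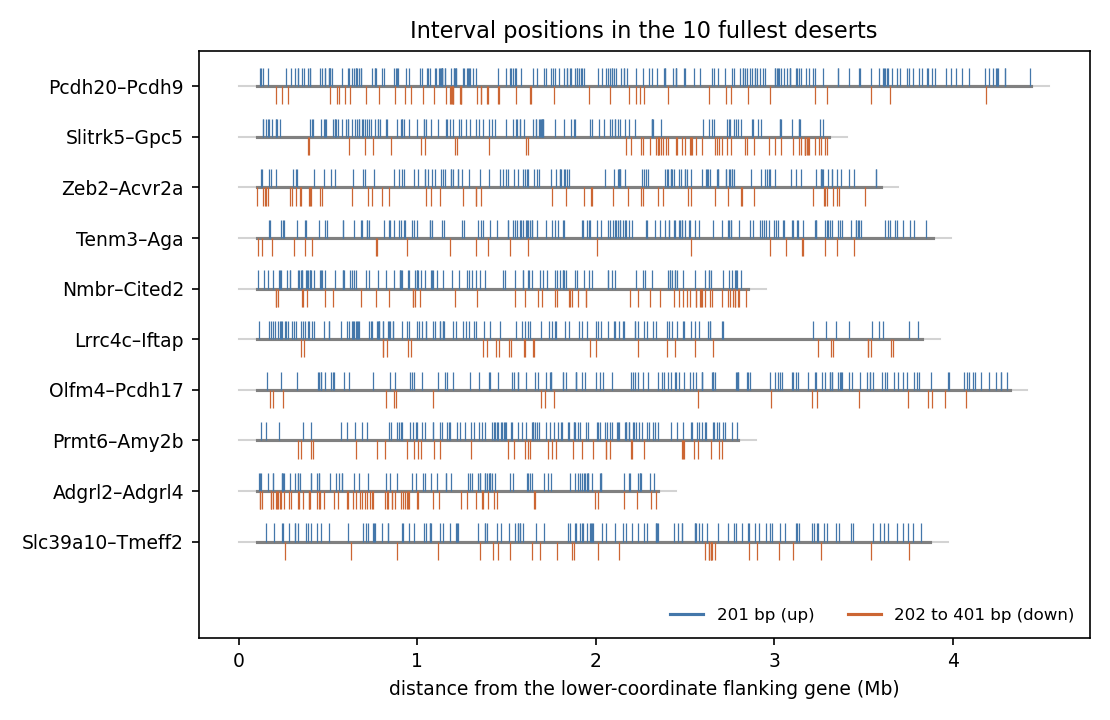
Positions of intervals in the 10 fullest deserts, as distance in Mb from the flanking gene of lower coordinate (x axis), with 201 bp intervals as upward ticks and wider ones as downward ticks. Wider ticks gather toward Gpc5, Cited2, Adgrl2 and Pcdh20, and Lrrc4c–Iftap shows an empty stretch of 503 kb.

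Among the 553 deserts with at least 10 intervals, the densest were short. A short desert can reach 10 intervals only if it is dense, so this order follows in part from that requirement. The 530 deserts under 0.1 Mb as a whole held 31.4 per Mb. The densest was Sox17–Mrpl15, with 12 intervals in 75.8 kb (158 per Mb, 81.8 to 277), 2 of them of 201 bp. Ly86–Rreb1 on chromosome 13, between a gene of a toll-like receptor partner of immune cells and a zinc-finger gene, had 25 in 159 kb (157 per Mb). Serp2–Lacc1 on chromosome 14, next to a gene of macrophage metabolism, had 38 in 265 kb (144 per Mb). Irf2bp2–Tomm20 on chromosome 8 had 19 in 137 kb (139 per Mb). Cd24a–Qrsl1 on chromosome 10 had 12 in 89.9 kb (133 per Mb). The share of 201 bp intervals in these 5 ran from 16.7% to 52.6%, below the 67.0% of all desert intervals. Deserts of like length also had lower shares as a whole, 41.2% under 0.1 Mb and 54.0% at 0.1 to 0.5 Mb.

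Deserts without an interval numbered 437 and covered 73.6 Mb. The 3 widest lay on the sex chromosomes, Vmn2r121–4932411N23Rik on X (2.48 Mb), Gm21763–Gm20910 on Y (1.38 Mb) and Slc6a14–Klhl13 on X (1.28 Mb). Vmn2r121 is a pheromone receptor gene and Slc6a14 an amino acid transporter gene. How much of each stretch could take unique reads is not known from the list.

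Of the 64 deserts over 2 Mb, 4 had under 10 intervals per Mb, and 3 of these were on X. The fourth was Klhl29–Apob on chromosome 12 (chr12:5475683-7877628), next to Apob, the apolipoprotein B gene of liver-secreted lipoproteins. It held 9 intervals in 2.40 Mb (3.75 per Mb, 1.71 to 7.11), where the median desert over 2 Mb had 37.2 per Mb. All but 1 of the 9 lay within 434 kb of Apob, and 3 within 122 kb of it, at 101, 102 and 122 kb. The other, at chr12:6417914-6418114, was 1559.6 kb from Apob, and the longest empty stretch had 1125.8 kb. Only 2 of the 9 had 201 bp, including the one far from Apob. This desert was singled out after its values had been seen.

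Flanking genes were grouped by symbol into 5 classes. Of 21774 coding genes, 2791 (12.8%) bordered a desert, 2135 of these (76.5%) a desert with an interval, and the median number of intervals beside a bordering gene was 4. Where a gene borders a desert at both ends, its fuller desert was used for named genes. No class was tested, and the length of the deserts is given with each class.

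Developmental transcription factor genes bordered deserts in 74 of 195 cases (37.9%), 65 with an interval, with a median of 10 intervals and a median desert length of 407 kb, against 231 kb for all bordering genes. Their 89 deserts held 30.3 intervals per Mb (28.7 to 32.0), near the 29.2 per Mb of all deserts. The fullest was beside Nr2f1, a nuclear receptor gene of neural development, with 107 intervals, 43.1 per Mb. Bcl11a, a repressor gene of fetal globin, had 75 (37.2 per Mb) with 56.0% of 201 bp.

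Adhesion and synapse genes had the fullest deserts of the classes. They bordered deserts in 53 of 153 cases (34.6%), 51 with an interval, with a median of 42 intervals and a median desert length of 1633.1 kb. Density in their 78 deserts was 36.6 per Mb (35.4 to 37.7). All deserts of 1 to 2 Mb, where that median length falls, had 27.1 per Mb, and all deserts over 2 Mb had 37.7. Pcdh20, Pcdh9 and Slitrk5, named above, led this class.

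Chemoreceptor genes, which encode odour, pheromone and taste receptors and sit in dense clusters, bordered deserts in 31 of 1496 cases (2.07%). Of these 31, 17 bordered a desert with an interval, the median number was 1, and their 26 deserts held 10.9 per Mb (8.31 to 14.0). The fullest were beside the bitter taste receptor gene Tas2r134, with 17 in the desert toward Rnd3, the odorant receptor gene Olfr1324 on X, with 10, and Tas2r119, with 9.

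Liver regulators, a list of transcription factor, receptor and insulin and growth signalling genes, bordered deserts in 20 of 41 cases (48.8%). All 20 bordered a desert with an interval, with a median of 10 and a median length of 390 kb, and density over their 24 deserts was 32.4 per Mb (29.0 to 36.2). Id2, an inhibitor of basic helix-loop-helix factors, and Ppargc1a, the coactivator of gluconeogenic and mitochondrial genes, each had 45, at 44.5 and 37.6 per Mb. Hnf4g, a relative of Hnf4a, had 35 in the desert toward Zfhx4 (25.8 per Mb).

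The share of 201 bp intervals varied among the deserts of hepatocyte factors in this list. As a whole, deserts of 0.1 to 0.5 Mb had 54.0% and shorter ones 41.2%. Deserts of 0.5 to 1 Mb had 62.8% and those of 1 to 2 Mb 70.2%. Beside Foxa2, a pioneer factor gene of liver development, the desert toward Pax1 held 28 intervals in 468 kb (59.9 per Mb, 39.8 to 86.5), of which 21.4% had 201 bp. Onecut1 had 17 (44.9 per Mb) with 29.4% of 201 bp, among them the interval on the Gm33459 promoter shown above. Nr5a2, a nuclear receptor gene of bile acid and cholesterol metabolism, had 29 in 902 kb (32.1 per Mb) with 48.3%. Nr3c1, the glucocorticoid receptor gene, had 8 in 54.1 kb (148 per Mb, 63.9 to 292), 37.5% of 201 bp. Cebpb had 4 in 40.3 kb, 25.0% of 201 bp, and Esrrg, an estrogen-related receptor gene, 3 in 36.9 kb, none of 201 bp. Prox1, which encodes a regulator of hepatocyte identity, had 4 in 402 kb (9.95 per Mb), 75% of 201 bp, and Tbx3 had 3 in 705 kb (4.25 per Mb), 33.3% of 201 bp. Zbtb20, a repressor gene of fetal liver genes, had 4 in 335 kb (50.0% of 201 bp) and Gata6 12 in 348 kb (58.3%). The shares beside Hnf4g (1.36 Mb) and Ppargc1a (1.2 Mb) were 68.6% and 60.0%.

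Deserts beside insulin and growth signalling genes of the list also varied in density. Irs1, an insulin receptor substrate gene, had 28 in 665 kb (42.1 per Mb), and Irs2, the other main substrate of liver, had 9 in 150 kb (60.0 per Mb). Egfr had 3 in 43.7 kb, while Ghr, the growth hormone receptor gene, had 1 in 180 kb (5.55 per Mb, 0.14 to 30.9). Among lipid regulators, Insig2, which holds back sterol synthesis, had 12 in 496 kb and Lpin1, a phosphatidate phosphatase gene, 11 in 519 kb.

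Clock genes bordered deserts in 3 of 19 cases (15.8%, against 12.8% of all coding genes). Arntl, the gene of the clock activator BMAL1, had 1 interval in 21.0 kb. The deserts beside Rora (456 kb toward Vps13c) and Rorb (1062.2 kb toward Anxa1), nuclear receptor genes that act on Arntl, are listed with 0 intervals. The Rorb desert lies on chromosome 19, where deserts held few intervals throughout.

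Density was also compared by which end of the flanking gene faced the desert. In deserts of at least 200 kb, the 100 kb next to the rule's limit held 28.6 intervals per Mb (27.4 to 29.9) on 688 sides where the gene's start faced the desert and 26.6 per Mb (25.4 to 27.9) on 656 sides where its end did, with overlapping 95% intervals. The shares of 201 bp intervals were 58.7% (56.5 to 60.9) and 59.8% (57.4 to 62.1). Strand was not known for the genes at 395 further sides.

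Non-coding genes took up 12.6% of desert bases with 1 kb at each end, and 3392 desert intervals (15.3%, 14.8 to 15.8) were centred there, a ratio of 1.21. For lncRNA genes the shares were 2779 intervals (12.5%) and 10.1% of bases. Density was higher at lncRNA ends, 54.3 per Mb (49.6 to 59.4) within 1 kb of an end against 35.4 (34.1 to 36.8) inside. Of the intervals at ends 46.0% had 201 bp, against 54.8% of those inside. Pseudogenes had 339 intervals (1.53%) on 1.56% of bases, a ratio of 0.979, with 72.3% of 201 bp. Of 2297 lncRNA genes in deserts, 1047 (45.6%) had an interval inside or within 1 kb, and 405 (17.6%) had 1 within 1 kb of an end.

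The non-coding records with the most intervals were the antigen receptor loci Igh on chromosome 12, with 121 over 2751.2 kb, and Igk on chromosome 6, with 77 over 3171.1 kb. The table types their segments as neither protein-coding nor lncRNA, so these loci count as deserts by the rule. Of the 121 in Igh, 104 had 201 bp, and of the 77 in Igk 55 had. Near-identical segments and strain differences make read placement there uncertain. Intervals on antigen receptor segments themselves and within 1 kb numbered 86.

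Among lncRNA genes, 5730522E02Rik in the Bcl11a–Fancl desert led with 36 intervals over 594 kb, 16 of them of 201 bp. 1700019L22Rik in Tenm3–Aga and Gm32647, between Gm15501 and the teneurin gene Tenm4, had 33 each, mostly of 201 bp (27 and 23). Mir99ahg, the host gene of a microRNA cluster between Usp25 and Cxadr, also had 33, in a shorter span of 229 kb, with 3 at its ends and 17 of 201 bp. Gm30382 in Adgrl2–Adgrl4 had 32 over 264 kb, 14 of 201 bp, and it lies on the Adgrl2 side, where the wider intervals of that desert gathered. A930011G23Rik, between Rasgef1b and Vamp9, had 31 with 12 of 201 bp. 2610307P16Rik, between Prl5a1 and the transcription factor gene Sox4, had 28 with 7 of 201 bp, the lowest share of the 10. Gm20754, between Slitrk3 and Bche, had 23, of which 19 had 201 bp.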

How the data were processed

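The authors deposited 1 list of interval positions without any count, signal or score. Per the submitters' processing notes, fastp, Bowtie2 and HOMER were used with the build mm10. How reads were filtered or shifted, where peaks were cut off and how the 6 libraries were merged is not stated in the labels, and depth per library is unknown. The planned strain comparison was not run because the list has no sample columns.

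Gene spans came from a RefSeq table (GRCm38.p6) with 49595 genes, 21774 of them protein-coding. A further 348 genes were left out because their positions, out of order in the table, appear to count along scaffolds. This was decided after the table had been seen and not checked against an assembly, and with them desert bases were 796 in place of 760 Mb. Starts were converted to 1-based positions. Desert bases were counted exactly between the first and last interval or gene of each chromosome. Exact Clopper-Pearson and Poisson 95% intervals cover counting error only. Python 3.11.15, numpy 2.4.6, pandas 2.3.3 and scipy 1.17.1 were used, and the distance and base counts were tested on simulated data.

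Named items were the 10 fullest, 5 densest (at least 10 intervals) and 3 widest empty deserts. Named intervals were the 5 farthest, 5 widest, 5 at each side of the rule and the tightest group, by centres within 10 kb. Also named were the 10 fullest non-coding genes and all microRNA genes with an interval within 1 kb. Flanking classes gave 3 genes each, and up to 5 promoters were named. All liver regulators and clock genes that border a desert were added, some items that these rules name are not reported here, and other items chosen after their values were seen are marked as such. The members and lists were chosen with earlier results of these data known. Alternatives varied the distance, gene set, chromosomes, widths and joining of intervals.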

Additional observations from a re-analysis of the deposited data

How the results depend on the processing

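With limits of 50 and 200 kb the desert share of intervals was 24.1% and 12.8%, density 29.8 per Mb at both, the 201 bp share 62.5% and 71.7%, the share with another interval within 5 kb 32.4% and 28.1%, and the share at non-coding genes 17.5% and 13.1%. Without predicted coding genes the desert share was 19.1% and density 27.1 per Mb, and with genes of all types 5.11% and 26.8. Intervals within 500 bp joined gave 18.7%, 28.2 per Mb and 25.4% with another interval within 5 kb. Wider intervals only gave 11.3%, 9.64 per Mb and 69 intervals in the fullest desert. Density was 33.2 per Mb on autosomes and 27.8 with genes on scaffolds included. Another interval lay within 1 kb of 9.18% and within 20 kb of 78.0%, and 13.6% lay inside non-coding genes proper. The desert to rest ratio stayed between 0.318 and 0.606 in the 13 settings run.

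The density beyond 1000 kb was 1.40 times that at 100 to 200 kb. This ratio turned with wider intervals only (0.599) and without predicted coding genes (0.591, but 1.20 on autosomes in that setting). It was 2.03 for 201 bp intervals, 1.07 within deserts over 2 Mb and 1.22 on autosomes. The alternatives for this ratio, for genes on scaffolds and for receptor segments were chosen after seeing the data. No paired analysis was possible because the list carries no sample columns, and no library could be left out for the same reason. Without depth, weak and strong intervals cannot be separated.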
